A study of Homo sapiens with 4 samples.

Results

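The genes described here encode 8 RNA-binding proteins, other than HuR, that act on AU-rich and related U-rich elements of mRNA: ZFP36, ZFP36L1, ZFP36L2, HNRNPD, KHSRP, TIA1, TIAL1 and CELF1. Their transcripts were examined as RNA recovered with HuR, the protein encoded by ELAVL1. A peak was assigned to a gene when at least 1 base of it lay in the gene's fixed hg19 span, without regard to its score. This gave 90 of the 47930 peaks listed at 0 Gy and 66 of the 36216 listed at 5 Gy. The cells were WS1 human skin fibroblasts, either left without X-rays (0 Gy) or given 5 Gy. Each dose had 1 RNA immunoprecipitation library made with HuR and 1 made with control immunoglobulin (IgG), 4 libraries in all. How long after irradiation the cells were taken is not stated in these sources. Each peak list compares the HuR library with the IgG library of its own dose, so no difference between the doses has a replicate check and no p-value was computed. Read depth is unknown from the lists, and RNA abundance was not used here, so more bound RNA and more RNA of a gene cannot be told apart.

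AU-rich elements are short sequence stretches, usually in the 3′ untranslated region, through which proteins set how long an mRNA lasts and how well it is translated. HuR is known mainly for stabilising such mRNAs. The ZFP36 family of zinc-finger proteins (ZFP36, also called tristetraprolin, ZFP36L1 and ZFP36L2) binds AU-rich elements and brings in the deadenylation machinery, so that the mRNA decays. KHSRP, a KH-domain protein, promotes decay and takes part in microRNA maturation, and HNRNPD (AUF1) can promote or slow decay depending on isoform and context. TIA1 and TIAL1 (TIAR) repress translation, nucleate stress granules and regulate splicing, and CELF1 binds GU-rich elements and acts in splicing and decay. Transcripts of such proteins often carry binding sites for the same class of proteins, which allows them to regulate each other.

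Peaks lay over 7 of the 8 genes at both doses, and ZFP36 had none at either. The lists give a chromosome, a start, an end and the authors' peak score, without strand. Scores begin at about 60, where −10 log10 of p would reach the 1e-06 in the list names, and many strong peaks are tied at 3100 (2481 at 0 Gy and 2000 at 5 Gy), so no order was read among tied peaks. The tie is not the top of the lists, since higher scores occur 85 times without irradiation and 70 times after 5 Gy, never over these genes. What sets those scores apart is not given in the sources used here. Together the 8 spans carried 73.3% as many peaks at 5 Gy as at 0 Gy (95% Wilson interval 53.5 to 100.6, counting error only), beside 75.6% over the whole lists. The covered sequence did not drop with the number of peaks. Peaks covered 71364 bases of the spans at 0 Gy (36.1% of their length) and 74116 bases at 5 Gy (37.5%), which is 103.9%. The corresponding figure over the whole lists was 91.7%. The direction of this small difference rested on CELF1, since the other genes together gave 98.03%. It also turned when the stretch of neighbouring peaks around each gene was taken in place of the span, which gave 98.9%.

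**Figure D1:**
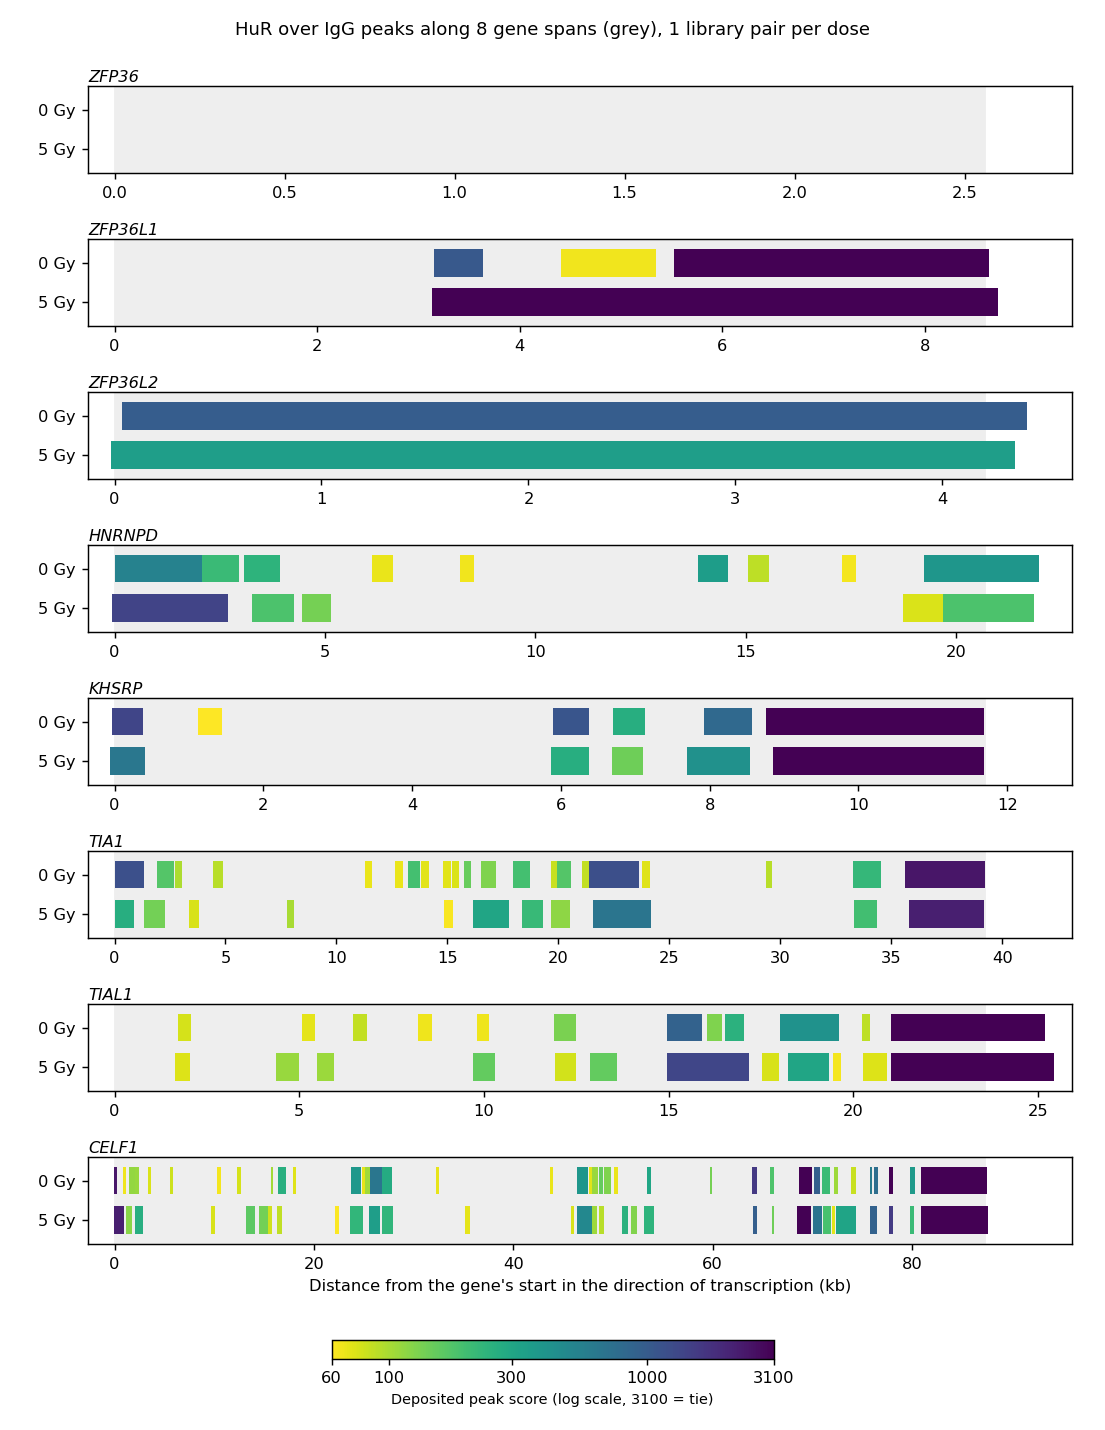
Peaks along the 8 gene spans (grey), drawn from the gene's start in the direction of transcription (kb), with 0 Gy above 5 Gy and colour giving the deposited score on a log scale. A long peak lies over the end of all 7 genes that carry peaks, and ZFP36 is empty at both doses.

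At 0 Gy, the 90 peaks had a median length of 444 bp, and the whole list one of 448 bp. At 5 Gy the 66 peaks had a median of 776 bp, beside 559 bp in the whole list. Peaks of at least 1 kb made up 18.9% of the 0 Gy peaks over these genes (18.7% in the whole list) and 31.8% of those at 5 Gy (25.04%). The median score over the genes was 134.3 at 0 Gy and 186.1 at 5 Gy, beside 136.6 and 143.4 over all peaks.

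The end of the transcript was the most evenly covered place. ZFP36 is transcribed from the plus strand and the others from the minus strand, so their 3′ ends lie at the lower coordinate. In each of the 7 genes with peaks, between 98.6% and 100% of the last 1000 bases of the span were under a peak, at both doses. The peak lying furthest toward the 3′ end was the longest of its gene in 7 of 7 genes at 0 Gy and in 6 of 7 at 5 Gy, HNRNPD being the exception. These end peaks measured 2729 to 6666 bp at 0 Gy and 2176 to 6721 bp at 5 Gy. They belonged to the longest peaks of the lists, since 4.97% of the 0 Gy list was at least as long as the shortest of them, and 9.80% of the 5 Gy list. The end peak also had the highest score of its gene, alone or tied, in 6 of 7 genes at each dose, again with the exception of HNRNPD. These counts include genes with a single peak, ZFP36L2 at both doses and ZFP36L1 at 5 Gy. There the end peak could only be the longest and the highest-scoring. Scores of 4 of the 7 end peaks were at the tie of 3100 in each list. With the bases of all genes added together, 41.1% of the covered sequence at 0 Gy and 41.9% at 5 Gy lay in the last 25% of the span. Peaks spread evenly would give 25%, and ZFP36L1, KHSRP, TIA1, TIAL1 and CELF1, 5 of the 7 genes, lay above that at both doses. ZFP36L2, which was covered along its whole length, had 25.2% at 0 Gy and 24.99% at 5 Gy. In HNRNPD the last 25% of the span held 24.1% of the covered sequence at 0 Gy and 30.8% at 5 Gy, less than the 49.9% and 69.2% in the first 25%. The lists do not say which bases are untranslated region, exon or intron, and other genes were not placed on hg19 here, so the figure for an average gene was not computed.

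**Figure D2:**
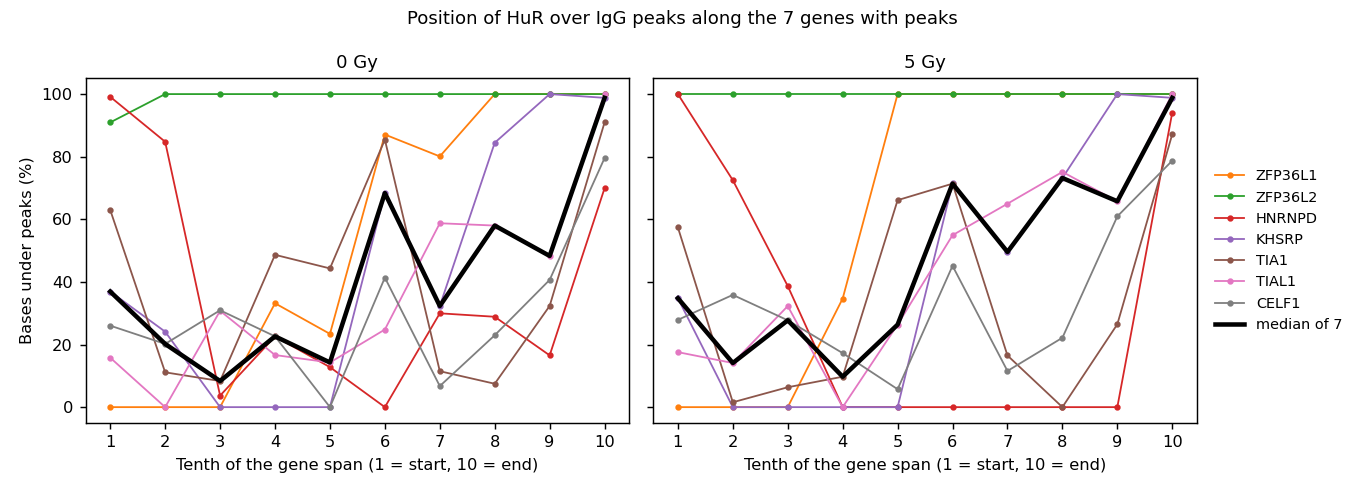
Bases under peaks (%) in 10 equal parts of each gene span, from its start (1) to its end (10), at 0 Gy and 5 Gy, 1 list per dose. The black line is the median of the 7 genes with peaks, which reaches 98.8% in the last part of the span at both doses.

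The start of the gene was reached less uniformly. A peak lay within the first 100 bases of ZFP36L2, HNRNPD, KHSRP, TIA1 and CELF1 at both doses, 5 of the 7 genes, while none did so in ZFP36L1 and TIAL1. In ZFP36L1 the first 3.15 kb of the span was free of peaks at 0 Gy and the first 3.14 kb at 5 Gy. RefSeq holds 2 start windows for ZFP36L1 (GRCh38.p14 chr14:68796194-68796493 and chr14:68793367-68793666), the second nearer the 3′ end. Part of the peak-free stretch may therefore lie before the start of some transcripts. Which start was used in these cells was not examined. Peaks over a start reached into the sequence before it in KHSRP at both doses (34 bases at 0 Gy and 58 bases at 5 Gy), in CELF1 at both doses (43 and 66 bases), and at 5 Gy only in HNRNPD (56 bases) and ZFP36L2 (16 bases). The RefSeq start windows (GRCh38.p14) of KHSRP and HNRNPD are shown because each gene has a single annotated window and a peak that crosses the start. The KHSRP window lies on the minus strand of chr19:6424782-6425061 and the HNRNPD window on the minus strand of chr4:82373962-82374241. These coordinates are GRCh38 and cannot be set against the hg19 positions of the peaks, and the annotated start may differ from that of the hg19 span by some bases. Capitals mark the first 30 bases from the annotated start.
KHSRP: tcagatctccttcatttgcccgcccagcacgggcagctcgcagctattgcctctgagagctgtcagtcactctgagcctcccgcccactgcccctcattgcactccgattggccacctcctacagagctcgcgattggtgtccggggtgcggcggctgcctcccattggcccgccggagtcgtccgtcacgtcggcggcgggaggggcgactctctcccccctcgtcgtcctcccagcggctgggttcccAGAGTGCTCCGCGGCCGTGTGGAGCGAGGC
HNRNPD: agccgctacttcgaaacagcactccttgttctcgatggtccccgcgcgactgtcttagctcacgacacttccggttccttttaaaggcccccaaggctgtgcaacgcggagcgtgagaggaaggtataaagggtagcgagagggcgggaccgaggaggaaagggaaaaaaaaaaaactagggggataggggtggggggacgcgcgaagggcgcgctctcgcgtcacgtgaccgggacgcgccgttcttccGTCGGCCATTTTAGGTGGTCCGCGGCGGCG
Both windows were searched on both strands, over 250 bases before and 50 after the start, for the U-rich 5-mer written as DNA, TTTTT, and for the AU-rich core ATTTA. Neither was found in the KHSRP window on either strand. In the HNRNPD window, TTTTT occurred at 8 overlapping positions on the strand opposite to the gene, all within the run of A visible before the start, and ATTTA did not occur. Of 35116 RefSeq windows of the same length, 39.2% held TTTTT and 30.5% held ATTTA on either strand. Only the 50 bases after the start, read on the gene's own strand, belong to a transcript from that start. The search therefore does not describe the RNA under the peaks. The GC content was 68.0% for KHSRP and 60.7% for HNRNPD, with a median of 58.7% over all windows.

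ZFP36, ZFP36L1 and ZFP36L2 belong to one protein family but differed in how much of their spans lay under peaks. The ZFP36 span (chr19:39897487-39900045, 2559 bp) held no peak at either dose. Its nearest peaks lay 21.3 kb and 24.2 kb away at 0 Gy, and 464.0 kb and 23.7 kb away at 5 Gy. A lack of peaks says that no stretch passed the caller's threshold over IgG. Whether ZFP36 RNA was present was not examined here.

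ZFP36L1 (chr14:69254372-69262960, 8589 bp) had 3 peaks at 0 Gy and 1 at 5 Gy, all in the part of the span toward the 3′ end. At 0 Gy they covered 52.4% of the span. The end peak was 3114 bp long and tied at 3100, the next had a score of 65.5 over 944 bp, and the one furthest toward the start had a score of 1047 over 486 bp. At 5 Gy, 1 peak of 5588 bp, tied at 3100, covered 63.5% of the span and lay over all 3 of the 0 Gy peaks. Every base covered at 0 Gy was also covered at 5 Gy. The 953 bases covered only at 5 Gy included the gaps between the 0 Gy peaks.

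ZFP36L2 (chr2:43449541-43453745, 4205 bp) was covered from end to end by a single peak in each list, 99.1% of the span at 0 Gy and 100% at 5 Gy. The lengths were nearly equal, 4371 bp and 4370 bp. The score was 984 at 0 Gy and 344.5 at 5 Gy, which is 2.86-fold lower after irradiation and moved the peak from percentile 87.6 of its list to percentile 73.2. No other peak lay within 394.7 kb on either side in either list. The RefSeq start table holds no window for ZFP36L2.

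HNRNPD and KHSRP are both linked to mRNA decay. The number of peaks was lower at 5 Gy in both, as it was in ZFP36L1, TIA1, CELF1 and the whole lists. HNRNPD (chr4:83274467-83295149, 20683 bp) had 9 peaks over 36.8% of its span at 0 Gy and 5 peaks over 30.5% at 5 Gy. The difference lay in the middle of the gene. A group of 5 peaks listed at 0 Gy between 6.13 and 17.6 kb from the start had no counterpart, and at 5 Gy no peak lay in the 13.6 kb beginning 5.13 kb from the start. The strongest of the 5 was a 722 bp peak with a score of 351, 4155 bases from the nearest 5 Gy peak. The other 4 scored 64.3 to 89.5, close to the threshold. At the start of HNRNPD the order was the opposite. Neighbouring peaks of 2066 bp (score 545) and 879 bp (score 214.9) at 0 Gy corresponded to 1 peak of 2743 bp with a score of 1406 at 5 Gy, the highest-scoring and longest of the gene at that dose. At the 3′ end the 0 Gy peak of 2729 bp scored 390, and the 5 Gy peaks lying against it measured 2176 and 942 bp and scored 183.5 and 74.7. These end peaks ran 1282 bases past the span at 0 Gy and 1171 bases at 5 Gy. Another peak followed 1.6 kb beyond the span in both lists, 2299 bp long with a score of 688.9 at 0 Gy and 690 bp with a score of 213.4 at 5 Gy. The RefSeq gene is 811 bases longer than the span used, and the lists do not show to which transcript the peaks beyond it belong. The covered sequence of HNRNPD at 5 Gy was 82.9% of that at 0 Gy within the span and 67.7% in the whole stretch of neighbouring peaks.

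KHSRP (chr19:6413119-6424822, 11704 bp) kept nearly the same outline. It had 6 peaks over 44.5% of the span at 0 Gy and 5 peaks over 42.8% at 5 Gy, and 90.6% of the bases covered at 0 Gy were covered at 5 Gy. Its end peak reached the same base toward the 3′ end in both lists, was 2935 bp long at 0 Gy and 2836 bp at 5 Gy, and was tied at 3100 in both. The scores of the 4 other matched peaks were all lower at 5 Gy. From the start to the end of the gene they were 1384 and 650.7 at the start, 1096 and 259.7 at about 6 kb, 262 and 142.3 at about 7 kb, and 823 and 429.4 at about 8 kb. The second of these differed 4.22-fold, the most of all pairs over the 8 genes. In the whole lists, 24.5% of such pairs scored at least 2-fold lower at 5 Gy. The 0 Gy peak with no counterpart scored 60.5, at the threshold. RefSeq places the microRNA gene MIR3940 within KHSRP, and the lists do not separate it from its host.

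**Figure D3:**
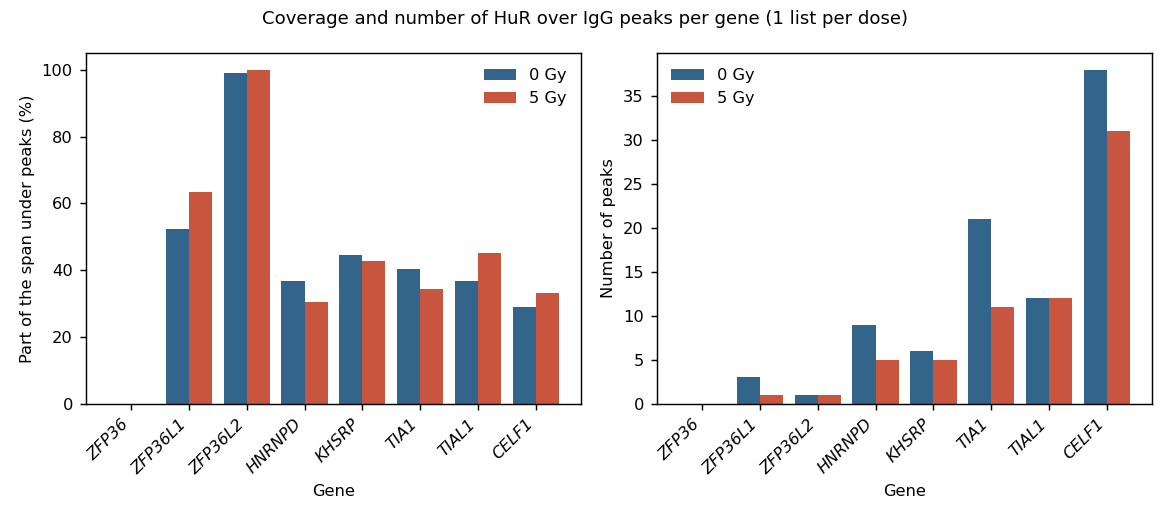
Part of each gene span under peaks (%, left) and number of peaks (right) for the 8 genes at 0 Gy and 5 Gy, 1 list per dose, so no error bars can be drawn. TIA1 has 21 peaks at 0 Gy and 11 at 5 Gy, while its covered part goes from 40.3% to 34.3%.

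TIA1 and TIAL1, 2 closely related translational repressors, differed in how their peaks compared between the doses. TIA1 (chr2:70436576-70475792, 39217 bp) had 21 peaks at 0 Gy and 11 at 5 Gy, covering 40.3% and 34.3% of the span. TIAL1 (chr10:121332978-121356541, 23564 bp) had 12 peaks at each dose, covering 36.7% and 45.1%. Of the 21 TIA1 peaks at 0 Gy, 9 had no counterpart, and 8 of these scored under 150. The remaining one scored 195.9 over 533 bp, 13.2 to 13.8 kb from the start. At 5 Gy, 2 TIA1 peaks had no counterpart, with scores of 99.8 and 76.2. The TIA1 end peak spanned 3568 bp at 0 Gy and 3419 bp at 5 Gy, with scores of 2468 and 2223. The peak at its start was 1337 bp with a score of 1176 at 0 Gy. At 5 Gy that peak was overlapped by one of 863 bp scoring 261.4 and one of 930 bp scoring 138.6. Another strong TIA1 peak lay 21.4 to 23.6 kb from the start, with a score of 1195 over 2216 bp at 0 Gy, and the 5 Gy peak there scored 670.9 over 2628 bp.

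In covered sequence TIAL1 had 122.8% of the 0 Gy bases at 5 Gy and TIA1 85.0%. The contrast in direction rested on weak peaks, since with scores of at least 100 both were above 100%, TIAL1 at 125.7% and TIA1 at 101.7%. Its end peak was tied at 3100 in both lists, measured 4149 bp at 0 Gy and 4434 bp at 5 Gy, and ran 1619 and 1878 bases past the span. About 15 to 17 kb from the start, 3 peaks at 0 Gy with scores of 248.6, 127.9 and 910.5 corresponded to 1 peak of 2209 bp with a score of 1355 at 5 Gy. In TIAL1, 4 peaks at 5 Gy had no counterpart, the strongest with a score of 153.8 over 732 bp, and 3 of these 4 lay within 59 bases of a 0 Gy peak. The 3 unmatched 0 Gy peaks scored 66.3 to 86.8. RefSeq places the uncharacterised gene LOC105378512 partly over TIAL1, and without strand the lists do not tell their RNA apart.

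CELF1 (chr11:47487489-47574792, 87304 bp) is the longest gene and carried the most peaks, 38 at 0 Gy and 31 at 5 Gy. Per length it was the least covered of the 7 genes at 0 Gy, with 29.1% of the span, and next to lowest at 5 Gy, with 33.3%. Its end peak was the longest over any of the 8 genes, 6666 bp at 0 Gy and 6721 bp at 5 Gy, and 164 peaks at 0 Gy and 177 at 5 Gy, over the whole lists, were at least as long. A second peak, about 69 kb from the start, was also tied at 3100 in both lists (1286 bp and 1363 bp). Strong peaks of CELF1 could be short. One of 442 bp at 0 Gy scored 3085 and its 396 bp counterpart at 5 Gy scored 1558, 1.98-fold lower. Another, at the start of the gene, was 324 bp with a score of 2431 at 0 Gy, and the 5 Gy peak over it was 1033 bp with a score of 2219. The longest stretch of CELF1 without peaks was 11.1 kb at 0 Gy, beginning 32.6 kb from the start, and 10.1 kb at 5 Gy, beginning 35.7 kb from the start. All 10 unmatched 0 Gy peaks scored under 150. Of the 8 unmatched 5 Gy peaks, 2 scored above it, with 249.5 over 544 bp (50.9 to 51.5 kb from the start) and 161.4 over 970 bp (13.2 to 14.1 kb). The RefSeq CELF1 gene, with alternative starts, is 12299 bases longer than the span used, so peaks before the span could belong to it. RefSeq also places the pseudogene RN7SL652P within this longer CELF1 gene. Whether it lies inside the hg19 span used here was not examined, and the lists, having no strand, would not separate it from CELF1. The nearest peak before the start of the span lay 8.2 kb from it at 0 Gy and 9.9 kb at 5 Gy.

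Over all 8 genes, 28 of the 90 peaks at 0 Gy (31.1%) had no overlapping 5 Gy peak, while 41.9% of the whole 0 Gy list had none. At 5 Gy, 15 of 66 peaks (22.7%) had no overlapping 0 Gy peak, beside 27.0% of the whole list. Put as shared peaks, 68.9% were found again at 5 Gy (95% Wilson interval 58.7 to 77.5) and 77.3% at 0 Gy (65.8 to 85.7). The whole lists gave 58.1% for the 0 Gy peaks and 73.0% for the 5 Gy peaks. The intervals treat peaks as independent, which peaks of one gene are not. No difference from the lists was read from them. With at least 50% of both peaks required to overlap, the shares came close to those of the lists, 40% beside 41.9% at 0 Gy and 54.5% beside 55.4% at 5 Gy. Of the unmatched peaks, 26 of 28 at 0 Gy and 12 of 15 at 5 Gy scored under 150. Most peaks of the whole lists also did so, since their median scores were 136.6 at 0 Gy and 143.4 at 5 Gy. The share among all unmatched peaks of the lists was not computed. In bases, 76.8% of the sequence covered at 0 Gy and 73.9% of that covered at 5 Gy were covered at both doses.

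Separate 0 Gy peaks often faced a single 5 Gy peak. At 5 Gy, 16 of 66 peaks (24.2%) overlapped at least 2 peaks of the 0 Gy list, beside 9.28% of all 5 Gy peaks. Of the 16, 9 were in CELF1, 4 in TIA1, and 1 each in ZFP36L1, HNRNPD and TIAL1. In the other direction, 7 of 90 peaks at 0 Gy (7.78%) overlapped at least 2 peaks at 5 Gy, beside 4.79% of the whole list. Both shares are counts over few genes with dense peaks, and no test was made of the difference from the lists.

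With all listed peaks, no gene reached a 1.5-fold difference in covered sequence. With scores of at least 100, ZFP36L1 did, at 153.4% of 0 Gy. At 5 Gy the figure was lowest in HNRNPD (82.9% of 0 Gy) and TIA1 (85.0%), near 100% in KHSRP (96.1%) and ZFP36L2 (100.9%), and highest in CELF1 (114.4%), ZFP36L1 (121.2%) and TIAL1 (122.8%). Among 8629 stretches of peaks joined within 10 kb with at least 1 kb covered in either list, 22.4% were at least 1.5-fold lower at 5 Gy and 12.0% at least 1.5-fold higher. Counts of 0 in 7 genes, with all listed peaks, are few to set against these shares.

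Scores could be compared in 28 pairs of peaks that overlapped only each other. In 4 pairs, the end peaks of KHSRP, TIAL1 and CELF1 and the second strong peak of CELF1, both scores were tied at 3100. Of the other 24, the score was lower at 5 Gy in 20 (83.3%, beside 63.9% of all 17408 such pairs of the lists), with a median ratio of 5 Gy to 0 Gy of 0.77, beside 0.80. It was at least 2-fold lower in 4 pairs (16.7%), beside 24.5% of all pairs. Of these 4, KHSRP held 2, ZFP36L2 held 1 and CELF1 held 1. It was at least 2-fold higher in 3 pairs (12.5%), beside 8.48% of all pairs. These were weak peaks at 0 Gy, with scores of 128.6 in TIA1, 66.7 in TIAL1 and 110.6 in CELF1, against 304.4, 154.2 and 259.7 at 5 Gy. The 24 pairs were spread unevenly. CELF1 gave 10, of which 9 were lower at 5 Gy. KHSRP, TIA1 and TIAL1 gave 4 each, with 4, 2 and 3 lower, and ZFP36L2 and HNRNPD gave 1 each, both lower. Peaks that overlapped several peaks of the other list are not among these pairs. The score grows with depth, and the 4 libraries may differ in it. The ratios given above for single peaks are therefore to be read only beside the shares and the median of all pairs.

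**Figure D4:**
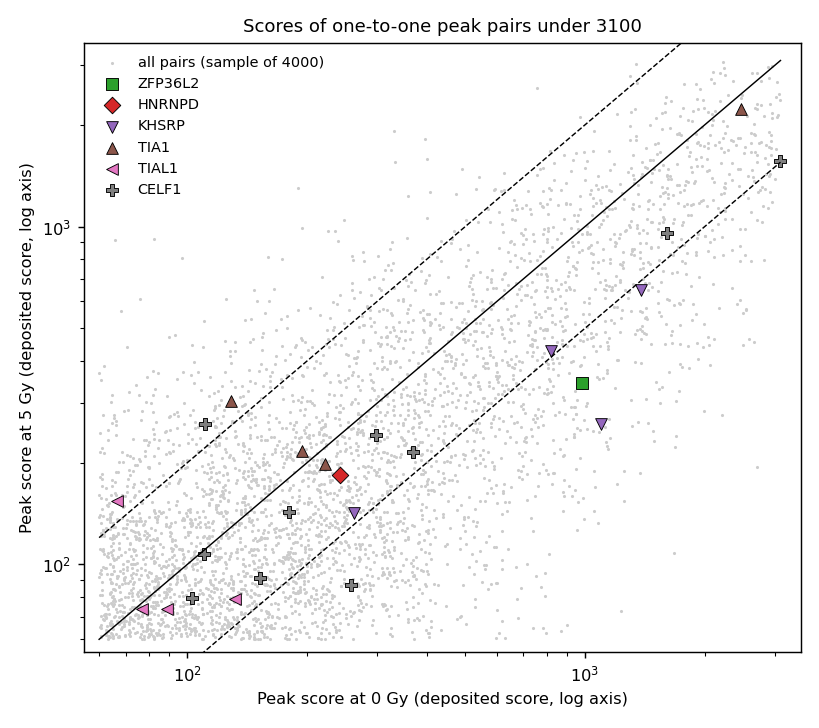
Deposited peak score at 0 Gy (x) and 5 Gy (y), both on log axes, for 24 one-to-one pairs over 6 of the genes (symbols) and a sample of all such pairs (grey). The solid line marks equal scores and the dashed lines a 2-fold difference. All pairs of KHSRP (4), ZFP36L2 (1) and HNRNPD (1) lie below the solid line, and 20 of the 24 pairs do so.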

How the data were processed

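RNA recovered with HuR or IgG was sequenced from WS1 cells at 0 Gy and 5 Gy, 1 library per group. Per the submitters' processing notes, cutadapt 1.9.1 and Bowtie2 2.2.4 were used, with hg19 as the build. The deposited files are 2 peak lists whose peak names begin with MACS; the version is not given in the sources used here. The value of a peak is the authors' deposited score, not scaled between lists, and the list names carry the settings 1e-06, 10 and 30.

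The genes and lists here were chosen with earlier results of these data known. Overlaps were counted with pandas 2.3.3, scipy 1.17.1 and numpy 2.4.6 under Python 3.11.15, and the counting was tested on simulated lists. Spans are counted from 1. Direction came from the RefSeq start windows, matched by symbol for 7 of the 8 genes, and for ZFP36L2 from general knowledge. For each gene and list, the highest-scoring and the longest peak and unmatched peaks scoring at least 150 were to be named. Other peaks named here were chosen after their values were seen. Percentile is the rank of a peak's score in its own list, with tied scores given their mean rank. No marker or pathway list was scored, since no hg19 annotation was used here.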

Additional observations from a re-analysis of the deposited data

How the results depend on the processing

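The 6 results over all genes were recomputed under the alternatives, 80 values in all, and the covered sequence of single genes 28 times. Of these 108 values, 96 kept their direction and lay within the Wilson interval or, for values based on covered bases, within 1.5-fold of the reported value, with no gene newly reaching a 1.5-fold difference between the doses. Some of the 96 could not differ. Leaving out ZFP36, which has no peaks, returns the same 6 results. Reading ZFP36L2 in the other direction could hardly change the share in the last 25%, because its peak covers nearly the whole span. Values with 1 gene left out share most of their peaks with the reported value. The Wilson interval for peak number, 53.5 to 100.6, is also wide and treats peaks of one gene as independent. The count of 96 is therefore a weak check. The last 50% of the span held 64.6% of the covered sequence at 0 Gy and 65.3% at 5 Gy, where an even spread would give 50%. With at least 50% of each peak overlapping, 40% of 0 Gy peaks and 54.5% of 5 Gy peaks were shared, so fewer 0 Gy peaks were shared than not. With scores of at least 100, 83.6% of 0 Gy peaks were shared, and the covered sequence at 5 Gy became 102.5% in KHSRP and 101.7% in TIA1, turning both directions, and 153.4% in ZFP36L1, past 1.5-fold. For ZFP36L2 it was 99.98% with the span extended by 1 kb and in joined stretches, and for all genes 98.9% in joined stretches. Leaving out 1 gene at a time gave 98.0 to 109.2% for covered sequence, 67.3 to 79.7% for peak number, 65.4 to 72.5% and 75.4 to 80.0% for shared 0 Gy and 5 Gy peaks, and 37.7 to 43.7% and 38.4 to 43.8% for the last 25% of the span at 0 Gy and 5 Gy. Joined stretches and the reading of ZFP36L2 in the other direction were chosen after seeing the data. The cause of these changes was not tested. No paired analysis was possible because there was 1 library in every group. Unknown depth limits every comparison of scores and peak numbers.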
